A study of Mus musculus with 4 samples.

Results

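The genes described here encode the translation initiation factors eIF1 to eIF6, the elongation factors eEF1 and eEF2, and the kinases, binding proteins and methyltransferases named after them. They were taken by symbol from a table of 24982 genes. Of 67 rows whose symbol matched, with copies on chromosome Y and names ending in -ps left out, 62 reached a mean of 5 CPM (counts scaled to a common library size) over the 4 libraries and were kept. The lowest gene kept was Eef1akmt4, with 5.24 and 6.80 CPM in the conditional knockout (cKO) and 4.02 and 4.94 CPM in the control libraries. The 5 rows left out were Eef1a2, at 0.301 to 0.600 CPM, and Eif3j1, Eif3j2, Eif4e1b and Eef1akmt4-ece2, each listed at 0 in all 4 libraries. A count of 0 allows a level of up to 0.181 CPM (3 counts, counting error only) for reads assigned to a single gene. The recorded counting command set no option for reads that map to several places, and Eif3j1 and Eif3j2 are named as copies of one gene, so their level was not measured here. Eef1akmt4-ece2 begins at the same base as Eef1akmt4 and spans it, and its level was not measured either.

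RNA was sequenced from micro-dissected mouse forebrain at E10.5, when most cells of the telencephalic wall are dividing progenitors. The 2 cKO libraries had the genotype Sox1 cre+/-; Chd7 f/f, in which a Cre named for the neural gene Sox1 deletes floxed Chd7, a chromatin remodeller. The 2 control libraries were Chd7 +/f, which carries a single floxed allele; a Cre is named for the cKO genotype and not for this one, so the Cre allele and the loss of Chd7 cannot be told apart. Nothing in the labels tells single embryos from pools, and p-values measure only the spread between these libraries.

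Totals ran from 16581252 to 17096522 counts per library. Chd7 was at 136 and 132 CPM in cKO libraries, against 339 and 345 CPM in control libraries, and Sox1 at 139 and 147 CPM in cKO libraries, against 177 and 173 CPM in control libraries. The forebrain label was checked on 6 markers, all of which were detected. Markers of other cells differed between the groups. Of 11 erythroid markers tested, 8 were called lower and 0 higher, with sums of 1912 and 1825 CPM in cKO and 2879 and 3101 CPM in control libraries, and the near-identical alpha globin genes Hba-a1 and Hba-a2 were listed at 0 in all 4 libraries. Of 10 neuron markers 4 were called lower and 0 higher, with sums of 580 and 596 CPM in cKO and 1016 and 845 CPM in control libraries. Over all genes tested, edgeR called 2.13% lower and 1.57% higher. Of 10 endothelial, 9 mesenchyme and 4 surface ectoderm markers tested, 0 were called by edgeR. The endothelial sums were 294 and 297 CPM in cKO and 348 and 332 CPM in control libraries. Both cKO libraries were below both control libraries for 8 of the 10 endothelial genes, against 24.0% of all genes tested. The mesenchyme sums were 893 and 591 CPM in cKO and 914 and 994 CPM in control libraries, with cKO replicate 2 apart from the rest. The surface ectoderm sums were 46.0 and 33.1 CPM in cKO and 11.3 and 36.3 CPM in control libraries, with control replicate 1 apart. In tissue RNA, fewer cells of a type and less RNA per cell cannot be told apart.

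Translation begins when eIF2 brings the initiator tRNA to the small ribosomal subunit, which eIF3 holds and the cap-binding eIF4 factors place on the mRNA. eIF1, eIF1A, eIF5 and eIF5B then set the start codon and join the subunits, after which eEF1 delivers each aminoacyl tRNA and eEF2 moves the ribosome along. Cells tune the process through kinases that phosphorylate eIF2 and through the 4E-binding proteins downstream of mTOR. Growing embryonic tissue makes these proteins in large amounts, and many of the mRNAs share a pyrimidine-rich start that mTOR signalling reads.

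Promoter sequence was available for 49 of the 62 genes, from RefSeq on GRCm38.p6. The stretches shown run from 100 bases before to 20 after the annotated start, and were chosen to cover 1 of the genes that rose (Eef1b2), 2 very abundant elongation factor genes, 1 initiation factor gene with a higher mean in cKO (Eif4b) and 1 with a lower mean (Eif1b). Capitals mark matches, on either strand, to 3 motifs: CACGTG (the E-box bound by MYC and its relatives), GGGCGG (the GC box) and CCGGAAG (the core bound by ETS factors).
Eef1b2, chr1:63176731-63176850, plus strand: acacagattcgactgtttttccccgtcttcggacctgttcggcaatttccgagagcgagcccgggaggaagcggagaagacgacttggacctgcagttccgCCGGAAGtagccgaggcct
Eef1a1, chr9:78481705-78481824, minus strand: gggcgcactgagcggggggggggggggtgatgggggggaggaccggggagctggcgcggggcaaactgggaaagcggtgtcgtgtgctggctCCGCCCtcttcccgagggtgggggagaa
Eef2, chr10:81176531-81176650, plus strand: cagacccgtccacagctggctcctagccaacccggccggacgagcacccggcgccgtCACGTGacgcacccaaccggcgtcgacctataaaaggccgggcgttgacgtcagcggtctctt
Eif4b, chr15:102073673-102073792, plus strand: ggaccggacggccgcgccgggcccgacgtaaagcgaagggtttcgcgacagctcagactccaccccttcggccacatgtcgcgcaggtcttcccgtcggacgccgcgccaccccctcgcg
Eif1b, chr9:120492506-120492625, plus strand: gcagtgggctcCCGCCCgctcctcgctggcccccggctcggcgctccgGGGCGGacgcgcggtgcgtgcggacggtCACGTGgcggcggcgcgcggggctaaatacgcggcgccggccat

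In these stretches the ETS core of Eef1b2 began 1 base after the start, the E-box of Eef2 began 43 bases before the start and that of Eif1b 24 bases before it. The stretch of Eif4b held none of the 3 motifs. Over the whole windows of 250 bases before and 50 after a start, an E-box was found for 13 of 49 factor genes (26.5%), against 8.91% of 17492 protein-coding genes and 11.6% of the 10606 of these that were tested for expression. The ETS core was found for 17 of 49 (34.7%), against 12.9% and 19.1%, and the GC box for 36 of 49 (73.5%), against 49.2% and 69.6%. These matches describe the letters in the windows and were not related to the expression values. Each motif was searched on both strands, and matches to the GC box and the ETS core can share bases at their ends.

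The factor genes differed little between the genotypes. Of the 62, 2 rose and 0 fell in the cKO forebrain, Eef1g and Eef1b2, both encoding subunits of the exchange factor that recharges eEF1A with GTP (edgeR quasi-likelihood test, Benjamini-Hochberg adjusted p under 0.05 over all 14235 genes tested). That is 3.23% of the factor genes called higher, against a background of 1.57% of all genes tested; 2.13% of all genes were called lower and 3.70% in either direction. At an unadjusted p under 0.05 the counts were 12 higher and 2 lower, where 8.43% and 9.10% of all genes passed. The median log2 fold change (cKO over control) was 0.05 for the factor genes and -0.00028 for all genes tested. It was above 0 for 46 factor genes (74.2%), against 49.9% of all genes. The range ran from -0.22 (Eif4ebp3) to 0.43 (Eef1akmt4), both among the least abundant of the genes. In GENCODE M21, Eif4ebp3 shares 67.3% of its exon bases with another gene on the same strand. What this does to its count over RefSeq exons was not tested. Eef1akmt4 reached the minimum of 5 CPM only through its cKO libraries (means of 6.02 CPM in cKO and 4.48 CPM in control libraries), so its place in the range is partly set by that minimum. With 1 library left out, its log2 fold change ran from 0.23 to 0.60 and that of Eif4ebp3 from -0.38 to -0.04.

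**Figure D1:**
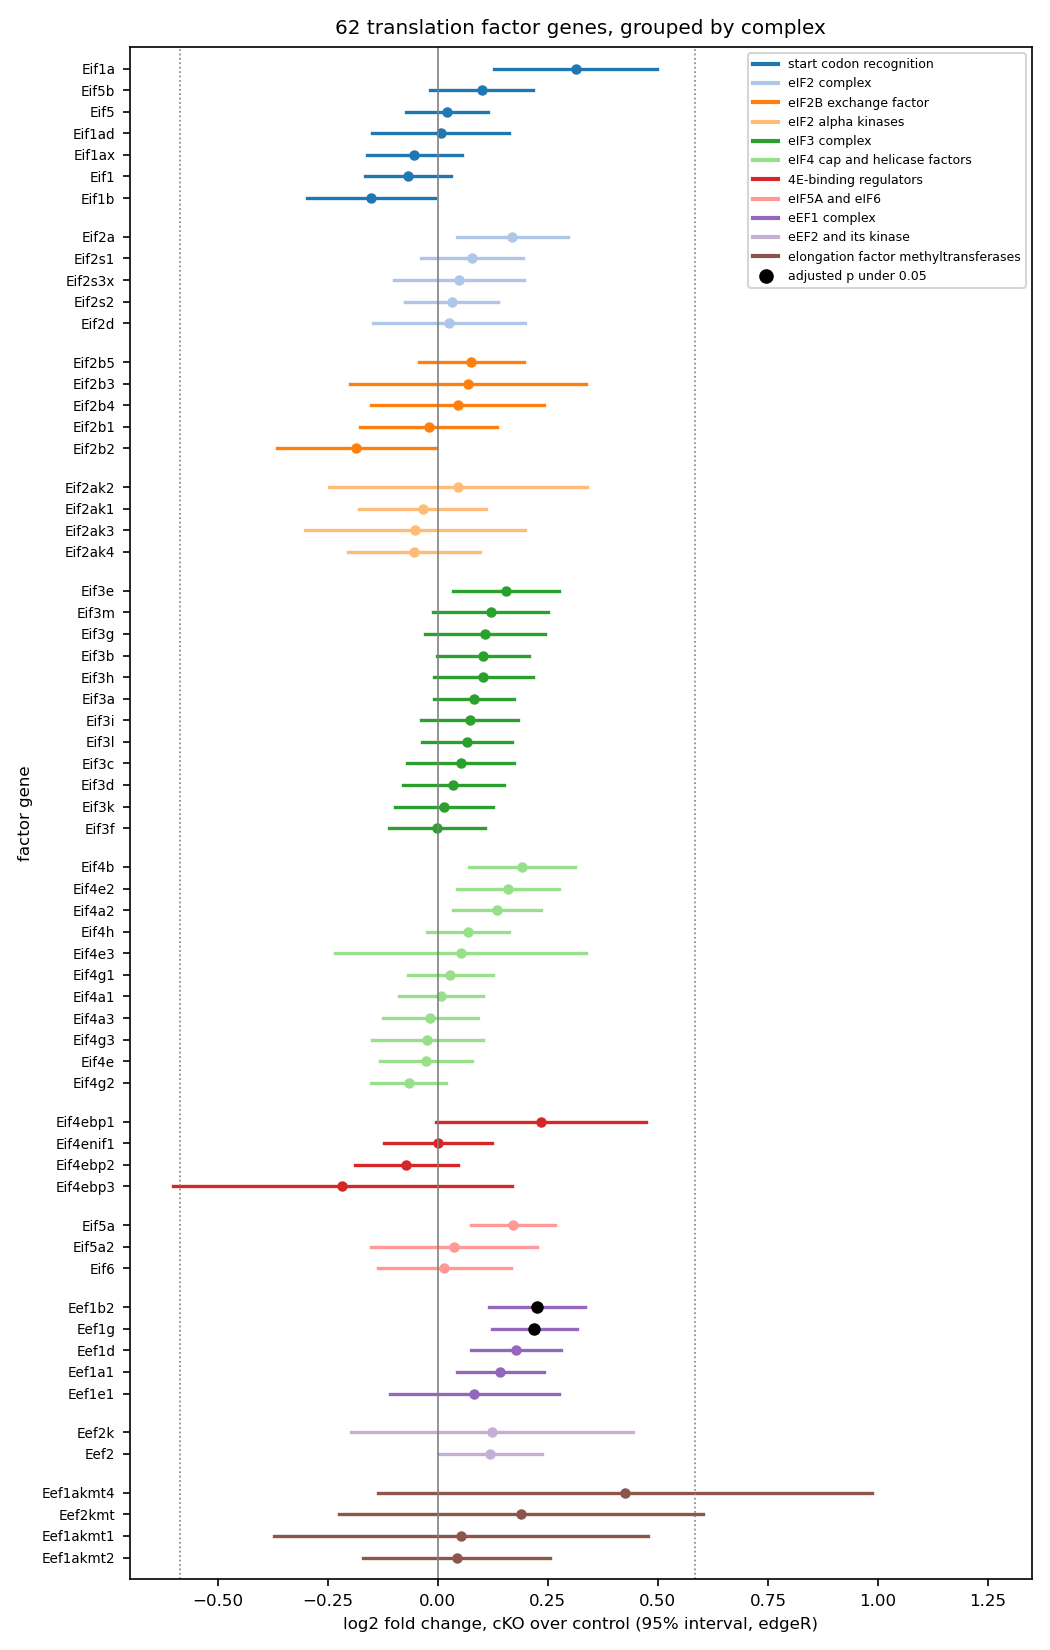
Log2 fold change (cKO over control) of the 62 factor genes with its 95% interval from edgeR, grouped by complex; dotted lines mark a 1.5-fold difference and black points an adjusted p under 0.05. The 2 black points are Eef1b2 and Eef1g, and 59 of the 62 intervals lie between the dotted lines.

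The intervals set the size of change that the libraries leave room for. For 59 of 62 factor genes (95.2%) the 95% interval of the fold change, not adjusted for the number of genes, lay within 1.5-fold either way, against 63.4% of all genes tested. The 3 exceptions were Eef1akmt4, Eef2kmt and Eif4ebp3, each at 15.3 CPM or less in every library. Among genes with a mean of 100 CPM or more the share was 100% (40 of 40) for the factor genes and 96.1% for all 2595 genes. At that level both cKO libraries were above both control libraries for 24 of the 40 factor genes (60.0%), against 30.5% of all genes.

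**Figure D2:**
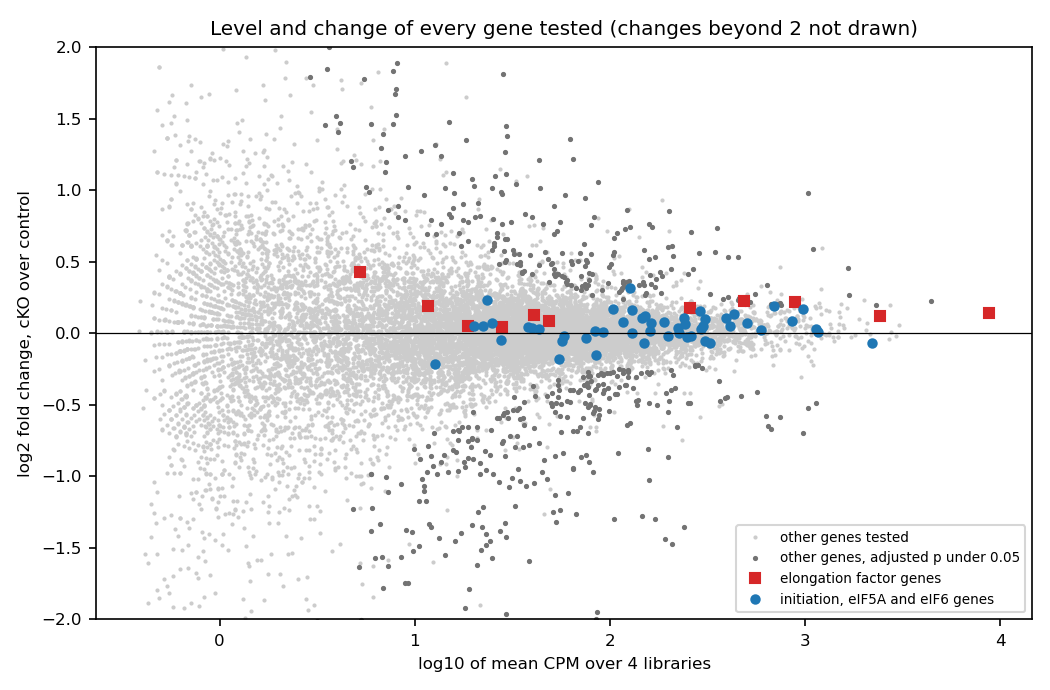
Log2 fold change against the log10 of mean CPM for every gene tested, with elongation factor genes as red squares and initiation, eIF5A and eIF6 genes as blue circles; darker grey points are other genes with an adjusted p under 0.05. The factor genes lie between -0.22 and 0.43, and the most abundant elongation factor genes, Eef1a1 and Eef2, lie at 0.14 and 0.12; changes beyond 2 are not drawn.

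The genes of the eEF1 complex, which delivers aminoacyl tRNA to the ribosome, had means 10.4% to 16.9% above control for 4 of 5 tested. Of the 5, 2 were called higher, against 1.57% of all genes tested. Eef1g (chromosome 19, 8967041 to 8978180 on GRCm38), the gamma subunit that anchors the exchange complex, had 937 and 979 CPM in cKO libraries, against 821 and 825 CPM in control libraries. It averaged 958 ± 30.0 CPM in cKO and 823 ± 2.7 CPM in control libraries (SD, n = 2 each), with a log2 fold change of 0.22 by edgeR (SE 0.04, adjusted p = 0.035). Both cKO libraries were above both control libraries. Eef1b2 (chromosome 1, 63176831 to 63180486), the catalytic subunit of the same exchange complex and the gene with the ETS core beside its start, had 507 and 542 CPM in cKO libraries, against 448.8 and 449.0 CPM in control libraries. Its log2 fold change was 0.23 (SE 0.05, edgeR adjusted p = 0.047), and the groups again did not overlap. The 2 control libraries of each gene were nearly equal, and cKO replicate 2, the library with the low mesenchyme sum, was the higher of the cKO pair for both.

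These calls rested on all 4 libraries. With any 1 library left out, neither gene was called: the edgeR adjusted p lay between 0.051 and 0.168 for Eef1g and between 0.0503 and 0.224 for Eef1b2. Their log2 fold changes stayed between 0.19 and 0.25 for Eef1g and between 0.18 and 0.27 for Eef1b2. With the erythroid genes removed before scaling both calls were kept. That removal changes the scaling only and leaves in any Eef1g and Eef1b2 reads from erythroid cells. The part of erythroid, neuron, mesenchyme and other cells in these values was not tested.

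The other eEF1 genes did not pass the test. Eef1d (chromosome 15, 75894796 to 75909784), another exchange subunit, had 269.5 and 273 CPM in cKO libraries, against 238 and 242 CPM in control libraries (log2 fold change 0.18, SE 0.04, edgeR adjusted p = 0.079). Eef1a1 (chromosome 9, 78478453 to 78481724), which carries the aminoacyl tRNA itself, had 8933 and 9524 CPM in cKO libraries, against 8244 and 8481 CPM in control libraries (0.14, SE 0.04, edgeR adjusted p = 0.134). For both genes the groups did not overlap. Processed copies of Eef1a1 are annotated in the genome, so part of its reads may be assigned elsewhere. Eef1e1, named for this complex although its product scaffolds tRNA synthetases, had 48.8 and 51.8 CPM in cKO libraries, against 50.1 and 44.9 CPM in control libraries, and the groups overlapped. Eef1a2 (chromosome 2, 181141758 to 181157015), the eEF1A form of mature neurons and muscle, had 5 and 8 counts in cKO libraries, against 10 and 8 counts in control libraries.

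**Figure D3:**
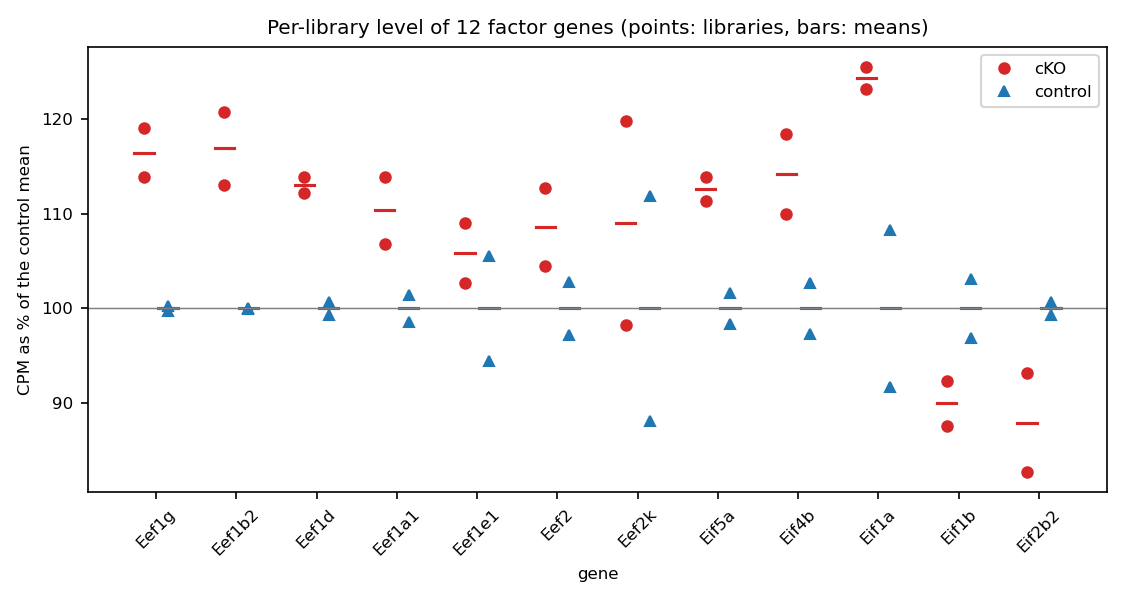
CPM of 12 factor genes in each library as a percentage of that gene's control mean, with cKO libraries as red circles, control libraries as blue triangles and short bars for the means of 2 libraries. The cKO libraries lie above both controls for Eef1g, Eef1b2, Eef1d, Eef1a1, Eef2, Eif5a, Eif4b and Eif1a, below both for Eif1b and Eif2b2, and overlap them for Eef1e1 and Eef2k.

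Eef2 (chromosome 10, 81176631 to 81182509), the translocase, had 2437 and 2627 CPM in cKO libraries, against 2266 and 2398 CPM in control libraries (log2 fold change 0.12, SE 0.05, edgeR adjusted p = 0.279). The groups were separate by a narrow margin. Its inhibitory kinase gene Eef2k had 46.9 and 38.5 CPM in cKO libraries, against 34.6 and 43.9 CPM in control libraries, so the spread within each group exceeded the difference. The genes of 4 methyltransferases that modify eEF1A or eEF2 were at 5.24 to 28.5 CPM in cKO libraries and 4.02 to 27.5 CPM in control libraries, and none passed the test. For Eef1akmt4, which passed the minimum level only through its cKO libraries, the log2 fold change was 0.43 (SE 0.24, edgeR adjusted p = 0.421). In GENCODE M21 it shares 30.7% of its exon bases with another gene on the same strand; what this does to its count over RefSeq exons was not tested.

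Per kilobase of exon, Eef1a1 was the most abundant of the 62 mRNAs, at 4979 and 5309 CPM per kilobase in cKO libraries and 4595 and 4727 in control libraries. Eef2 followed at 789 and 851 CPM per kilobase in cKO libraries and 734 and 776 in control libraries, and Eif4a1 at 647 and 667 in cKO and 665 and 642 in control libraries. The ranges of Eef2 and Eif4a1 did not overlap. Next were Eef1g, at 503 and 525 CPM per kilobase in cKO libraries and 441 and 443 in control libraries, and Eif5a, at 429 and 438 in cKO and 379 and 391 in control libraries. The lowest was Eef1akmt4, at 3.25 and 4.21 CPM per kilobase in cKO libraries and 2.49 and 3.06 in control libraries. Because Eef1akmt4-ece2 spans this gene, the count of Eef1akmt4 may be too low, which was not tested. Exon lengths were taken from a merged set of annotated transcripts, so a gene with a long unused exon is placed too low.

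The 62 genes together took 2.84% and 2.93% of counts in cKO libraries and 2.72% and 2.76% in control libraries. Their summed level was 28429 and 29661 CPM in cKO libraries, against 27122 and 27439 CPM in control libraries, a difference of 6.47% between the group means. Without Eef1a1 the difference was 4.75%. Eef1a1 alone took 0.894% and 0.942% of counts in cKO libraries and 0.827% and 0.852% in control libraries.

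Among the genes of start codon recognition, 0 of 7 passed the test, against 3.70% of all genes tested. A count of 0 in a group this small, here and below, says little about the group. Eif1a (chromosome 18, 46597704 to 46610225), an autosomal gene for the scanning factor eIF1A, had 142 and 139 CPM in cKO libraries, against 104 and 122 CPM in control libraries (log2 fold change 0.31, SE 0.08, edgeR adjusted p = 0.084). The cKO libraries were close together and above both controls, which differed from each other. Without control replicate 2 the log2 fold change was 0.44 (edgeR adjusted p = 0.0056), and without control replicate 1 it was 0.20 (0.219). Its X-linked paralogue Eif1ax had 304 and 298 CPM in cKO libraries, against 320 and 305 CPM in control libraries (-0.05, SE 0.05, edgeR adjusted p = 0.625). Eif1a took 36.6% and 36.7% of the length-scaled counts of this pair in cKO libraries, against 28.7% and 33.3% in control libraries.

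The gene for eIF1, which holds the scanning ribosome open, and its paralogue had slightly lower means in the cKO. Eif1 had 318 and 314 CPM in cKO libraries, against 331.4 and 331.1 CPM in control libraries, and Eif1b had 82.7 and 78.5 CPM in cKO libraries, against 92.4 and 86.8 CPM in control libraries. The groups did not overlap for either gene, and neither passed the test (edgeR adjusted p = 0.472 and 0.2698). Eif5, which triggers GTP hydrolysis by eIF2, had 599.5 and 601 CPM in cKO libraries, against 599 and 584 CPM in control libraries. Eif5b, which joins the subunits, had 319 and 317 CPM in cKO libraries, against 307 and 286 CPM in control libraries. About 21.1% of the exon bases of Eif5b lie opposite exons of Rev1, and the counts carry no strand.

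None of the 5 genes of initiator tRNA delivery passed the test, against 3.70% of all genes tested. The eIF2 subunit genes Eif2s1, Eif2s2 and Eif2s3x had log2 fold changes of 0.08, 0.03 and 0.05. Eif2s3x had 287 and 324 CPM in cKO libraries, against 302 and 290 CPM in control libraries, so the groups overlapped. Eif2a, which encodes an alternative initiator tRNA carrier unrelated to the eIF2 subunits, had 109 and 110 CPM in cKO libraries, against 99.2 and 95.2 CPM in control libraries (0.17, SE 0.05, edgeR adjusted p = 0.159).

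The exchange factor eIF2B recharges eIF2, and 0 of its 5 subunit genes passed the test, against 3.70% of all genes tested. Eif2b5, the catalytic epsilon subunit, had 119 and 122 CPM in cKO libraries, against 113 and 114 CPM in control libraries. Eif2b2, the beta subunit, had 48.5 and 54.6 CPM in cKO libraries, against 59.0 and 58.2 CPM in control libraries (log2 fold change -0.18, SE 0.08, edgeR adjusted p = 0.279). The 4 genes of kinases that phosphorylate eIF2, sensors of haem (Eif2ak1), double-stranded RNA (Eif2ak2), unfolded protein (Eif2ak3) and uncharged tRNA (Eif2ak4), had log2 fold changes of -0.05 to 0.05, and 0 passed the test. Eif2ak4 had 55.9 and 55.3 CPM in cKO libraries, against 58.6 and 56.8 CPM in control libraries.

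The 12 measured eIF3 genes, which encode a complex that holds the small subunit, had a median log2 fold change of 0.08. The range was -0.0012 to 0.15, and 0 passed the test, against 3.70% of all genes tested. In 8 of the 12 both cKO libraries were above both control libraries, and in 0 both were below. Over all 62 factor genes those shares were 43.5% above and 11.3% below, and over all genes tested 24.3% and 24.0%. All 12 had a mean of 100 CPM or more. At that level the share above was 60.0% of factor genes and 30.5% of all genes tested. Eif3e, a subunit at the edge of the complex, had 295 and 313 CPM in cKO libraries, against 280 and 266 CPM in control libraries (log2 fold change 0.15, SE 0.05, edgeR adjusted p = 0.178). Eif3a, the largest subunit, had 874 and 897 CPM in cKO libraries, against 841 and 831 CPM in control libraries. Eif3f lay at the bottom of the range, with 229 and 222 CPM in cKO libraries, against 222 and 229.6 CPM in control libraries.

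Of 11 genes of the cap-binding and helicase group eIF4, 0 passed the test, against 3.70% of all genes tested. Eif4b (chromosome 15, 102073773 to 102097173), a cofactor of the helicase eIF4A, had 708 and 763 CPM in cKO libraries, against 627 and 661 CPM in control libraries (log2 fold change 0.19, SE 0.05, edgeR adjusted p = 0.102). The helicase genes diverged little: Eif4a1 had 1148 and 1184 CPM in cKO libraries, against 1179 and 1139 CPM in control libraries. Eif4a2 had 448 and 454 CPM in cKO libraries, against 404 and 419 CPM in control libraries, with no overlap (0.13, SE 0.04, edgeR adjusted p = 0.159). Eif4a2 took 17.8% and 17.5% of the length-scaled counts of the pair in cKO libraries, against 16.0% and 16.9% in control libraries.

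The cap-binding gene Eif4e had 242 and 250.1 CPM in cKO libraries, against 250.03 and 251 CPM in control libraries, while its repressive relative Eif4e2 had 136 and 139 CPM in cKO libraries, against 123.5 and 122.9 CPM in control libraries (log2 fold change 0.16, SE 0.05, edgeR adjusted p = 0.147). Eif4e3, another relative, had 20.9 and 19.8 CPM in cKO libraries, against 21.0 and 18.3 CPM in control libraries. The scaffold gene Eif4g1 had 1140 and 1164 CPM in cKO libraries, against 1106 and 1153 CPM in control libraries. Eif4g2 (chromosome 7, 111067985 to 111083030), a scaffold that lacks the eIF4E-binding site, was the most abundant initiation factor gene in CPM, with 2140 and 2162 CPM in cKO libraries, against 2270 and 2235 CPM in control libraries. It was lower in both cKO libraries by a small margin (log2 fold change -0.07, SE 0.04, edgeR adjusted p = 0.405). Eif4g3 had 249 and 269.7 CPM in cKO libraries, against 269.1 and 259 CPM in control libraries, and the groups overlapped.

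The 4E-binding proteins hold eIF4E away from the scaffold until mTOR phosphorylates them. Their genes were grouped with Eif4enif1, whose product binds eIF4E but is not one of these proteins. In this group 0 of the 4 genes passed the test, against 3.70% of all genes tested. Eif4ebp1 had 24.8 and 25.6 CPM in cKO libraries, against 21.0 and 21.9 CPM in control libraries (log2 fold change 0.23, SE 0.10, edgeR adjusted p = 0.294). Eif4ebp2 had 145 and 148 CPM in cKO libraries, against 151 and 157 CPM in control libraries (-0.07, SE 0.05, edgeR adjusted p = 0.524). Eif4ebp2 accounted for 66.9% and 66.6% of the length-scaled counts of this pair in cKO libraries, against 71.3% and 71.2% in control libraries. The shares of the 2 groups did not overlap. This was not particular to the pair, since it held for most of the paralogue pairs measured, those of Eif4a2, Eif4e2 and Eif1a among them. With 2 libraries a group an exact permutation test could not pass 0.05, and none was run.

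Eif5a (chromosome 11, 69916712 to 69921958), whose product helps the ribosome through difficult peptide bonds, had 1019 and 1042 CPM in cKO libraries, against 900 and 931 CPM in control libraries (log2 fold change 0.17, SE 0.04, edgeR adjusted p = 0.0700). Its paralogue Eif5a2 had 39.8 and 41.2 CPM in cKO libraries, against 40.9 and 38.1 CPM in control libraries. Eif6, which keeps the large subunit from joining early, had 85.3 and 84.2 CPM in cKO libraries, against 80.0 and 87.7 CPM in control libraries. Of the 3 genes only Eif5a had groups that did not overlap.

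The authors' deposited table, from a study whose processing notes name DESeq2, lists 5 of the 62 factor genes (8.06%) as higher and 0 as lower at an adjusted p under 0.05, against 1.99% and 2.49% of the 13964 genes with an adjusted p. In the authors' deposited table these are Eef1g (log2 fold change 0.22, adjusted p = 0.0011), Eef1b2 (0.22, 0.0058), Eif5a (0.17, 0.0218), Eif4b (0.19, 0.0320) and Eif1a (0.31, 0.0325). A DESeq2 Wald test on the counts called the same 5 genes. Why the 2 tools differ in their calls was not tested.

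**Figure D4:**
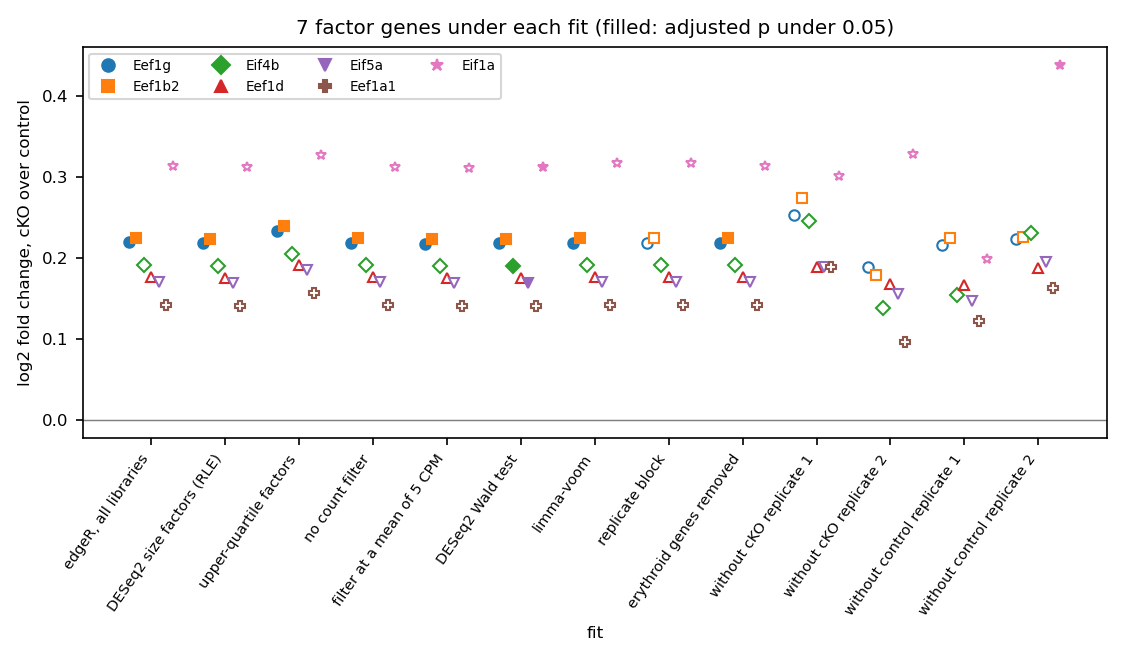
Log2 fold change (cKO over control) of 7 factor genes under edgeR on all libraries and under 12 alternatives, filled where the adjusted p was under 0.05. Every point lies above 0; Eef1g and Eef1b2 are open in the fits that leave out a library or use the replicate number as a block.

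Genes around the factors were examined in 5 lists. In 10 factor genes reported to carry a terminal oligopyrimidine tract, a start that mTOR signalling controls, the median log2 fold change was 0.15. Of the 10, 2 were called higher (Eef1g and Eef1b2) and 0 lower, against 1.57% and 2.13% of all genes tested. The list is a subset of the factor genes and adds nothing independent to them. Of 22 genes listed for the cytosolic tRNA synthetases, which charge tRNAs for eEF1, 0 were called, with a median of 0.03. The list also holds Aimp1 and Aimp2, which are not synthetases. Vars had 330 and 354 CPM in cKO libraries, against 309 and 310 CPM in control libraries (edgeR adjusted p = 0.184). Farsb had a log2 fold change of 0.18 (edgeR adjusted p = 0.1895). Of 17 termination and poly(A)-binding genes 0 were called, with a median of 0.05; the poly(A)-binding protein gene Pabpc1 had 1168 and 1212 CPM in cKO libraries, against 990 and 1103 CPM in control libraries (0.19, SE 0.06, edgeR adjusted p = 0.142), and was called without control replicate 2 (0.029). Pabpc4 had a log2 fold change of 0.19 (edgeR adjusted p = 0.262). This list of 17 also holds genes of other kinds, Dhps and Dohh among them.

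Of 20 targets of the integrated stress response, which follows phosphorylation of eIF2, 19 were tested; 1 was called higher and 0 lower, where 1.57% of all genes tested were called higher and 2.13% lower, with a median log2 fold change of 0.07. The list was split. Both cKO libraries were above both control libraries for 8 genes and below for 5, against 24.3% and 24.0% of all genes tested. Atf4 and Ddit3 were among the 5, with log2 fold changes of -0.14 and -0.27 (edgeR adjusted p = 0.206 and 0.471). Sesn2 and Asns were among the 8, with log2 fold changes of 0.40 and 0.24 (edgeR adjusted p = 0.110 and 0.131). The gene called was Ddit4, an inhibitor of mTOR that also stands in the mTOR list. It had 85.1 and 105 CPM in cKO libraries, against 65.3 and 64.7 CPM in control libraries (0.55, SE 0.10, edgeR adjusted p = 0.030). Leaving out cKO replicate 2 ended the call (edgeR adjusted p = 0.083), as did leaving out control replicate 1 (0.068). Of 20 mTOR pathway genes 2 were called higher and 0 lower, against the same 1.57% and 2.13% of all genes, with a median of 0.0073 (-0.02 without control replicate 2): Ddit4 and Rragd, a GTPase that recruits mTOR to lysosomes. Both cKO libraries were above both control libraries for 4 of the 20 and below for 3. Rragc, a paralogue of Rragd, was among the 3 (log2 fold change -0.23, SE 0.07, edgeR adjusted p = 0.124). Rragd had 130 and 152 CPM in cKO libraries, against 107 and 111 CPM in control libraries (0.37, SE 0.08, edgeR adjusted p = 0.049), a call lost without cKO replicate 2 (0.202) or control replicate 1 (0.140), under limma-voom (0.055) and with erythroid genes removed (0.05004).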

How the data were processed

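PolyA RNA was sequenced after preparation with a Vazyme VAHTS kit, per the labels' protocols. HISAT2, featureCounts, DESeq2 and the build mm10 appear in the submitters' processing notes. The deposited table holds raw counts per gene from featureCounts 2.0.1 over RefSeq exons, paired-end and without a strand option, per the file headers. The authors also deposited log2 fold changes, p-values, a Wald score and a normalized signal (not used); their table is named wherever its values are printed. Of per-sample columns, 0 lacked a sample.

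Genes passing filterByExpr (minimum count 10) were tested with edgeR 4.0.16 under R 4.3.3: TMM, glmQLFit and glmQLFTest, no covariate, Benjamini-Hochberg over 14235 genes. CPM are TMM-scaled. The SE is the log2 fold change over the root of F; intervals use its degrees of freedom. The step was tested on simulated counts. Replicates were distinct libraries: chi-square per degree of freedom 4.69 (cKO) and 5.57 (control). Genes outside the filter took 0.0651% to 0.0679% of counts. Coordinates and promoters are RefSeq's on GRCm38.p6, the build called mm10 by UCSC; exon lengths and overlaps come from GENCODE M21, and 6 factor genes share over 10% of their exon bases with the opposite strand.

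Members, lists and pairs were chosen with earlier results of these data known. Genes given with values are those called, the most abundant and most changed of each group, and the paralogue pairs. Of each further list they are up to 4 called genes, or the 2 with the smallest p. Eif3f, Eif5b, Eif6, Eef1d, Eef1e1, Eef2kmt, Eif4ebp3 and the eIF2 subunits were added after their values were seen. So were Atf4, Ddit3, Sesn2, Asns and Rragc of the further lists. Alternatives were DESeq2 1.42.0, limma-voom 3.58.1, other scalings and filters, a replicate block, erythroid genes removed and each library left out. Plots used matplotlib 3.10.9. The levels of the forebrain markers are not reported here.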

Additional observations from a re-analysis of the deposited data

How the results depend on the processing

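Eef1g and Eef1b2 stayed called under limma-voom, upper-quartile or DESeq2 scaling, with genes filtered at a mean of 5 CPM or not at all, and with erythroid genes removed. The DESeq2 Wald test called 5 factor genes higher. Leaving out a library gave 0 to 1 factor genes higher; the 1 was Eif1a, without control replicate 2. Over all genes, these fits called 80 to 351 higher and 131 to 418 lower. With the replicate number as a replicate block, 0 factor genes were called (Eef1g adjusted p = 0.053, Eef1b2 0.070, edgeR) and 137 of all genes were higher; the same-numbered libraries share only a number (correlation of their deviations -0.011 across 11103 genes). No factor gene was called lower in any of these fits (by edgeR on all libraries, 2 at an unadjusted p under 0.05; by the DESeq2 Wald test, 0 at an adjusted p under 0.05). The median log2 fold change of the factor genes was 0.04 to 0.07 when a library was left out (0.038 without cKO replicate 2 and 0.071 without control replicate 1), and admitting genes at 1 CPM added none. The sign of the log2 fold change varied for 24 of the 62 genes over the 12 alternatives. The cause of these differences was not tested. The 95% intervals leave room for changes of up to 1.41-fold for Eif1a, 1.36-fold for Eef2k and 1.39-fold for Eif4ebp1, so 2 libraries a group limit what could be called well above the lowest levels.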
